A study of Mus musculus with 8 samples.

Results

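Aquaporins are channels that let water, and in some members glycerol or other small solutes, cross cell membranes. Transcripts of 9 aquaporin genes, Aqp1 to Aqp8 and Aqp11, were followed in the kidneys of 4 NEKO and 4 control mice on Agilent 1-colour (Cy3) mouse arrays, with 1 array per mouse. The 9 genes were taken by name from a list drawn up with earlier results of these data known, among the 18217 genes that a probe of the array could be matched to. Every one of them had a probe detected above background on 4 or more arrays, and all 9 were tested among 19593 genes and unnamed transcripts. Mip, Aqp9 and Aqp12, the 3 other family genes with a probe (5 probes in all), were not well above background on any array and were not tested.

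NEKO mice were Keap1-/-::Nrf2Flox/Flox::K5-Cre. They lacked Keap1 in the whole body and carried a Cre driven by the Keratin5 promoter, which removes the floxed Nrf2 in squamous epithelium. Of the littermate controls, 3 were K1Cre (Keap1+/-::Nrf2Flox/Flox::K5-Cre) and 1, a female, was K1 (Keap1+/-::Nrf2Flox/Flox). Floxed Nrf2 was therefore common to all 8 mice, and every control was heterozygous for Keap1. All mice were 8 weeks old, of mixed 129Sv/J and C57BL/6J descent, and each group had 2 females and 2 males. Mice are named here by the replicate number in the labels, which runs over both groups: control 1 and 8 and NEKO 2 and 3 were females, control 4 and 7 and NEKO 5 and 6 were males, and control 1 was the K1 mouse. Because all females shared 1 slide and all males another, a difference between sexes cannot be told apart from one between slides. On both slides the controls lay at positions 1 and 2 and the NEKO mice at 3 and 4, so position and genotype cannot be told apart either.

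In the nephron Aqp1 is the water channel of the proximal tubule and the thin descending limb. In the collecting duct, vasopressin acting through its receptor and cyclic AMP brings Aqp2 to the apical membrane of principal cells, and Aqp3 and Aqp4 let the water leave at the basolateral side. Loss of Aqp2 function causes nephrogenic diabetes insipidus, in which urine cannot be concentrated. The study addressed how activation of Nrf2 in the kidney affects water reabsorption, and the arrays show the transcripts of the channels, not the proteins or their place in the cell.

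Aqp2, Aqp5 and Aqp6 lie side by side on chromosome 15, and Aqp3 and Aqp7 on chromosome 4. The 250 bases before the start of Aqp2, the vasopressin-regulated channel, and of Aqp6, the member with the largest difference below, are shown because both genes belong to the same cluster and their differences are of unlike size. They are read from RefSeq promoter windows of GRCm38.p6 at chr15:99578806-99579055 and chr15:99600950-99601199, both on the plus strand, and are written 5′ to 3′. The start that the RefSeq window uses for Aqp6 lies inside the span of the gene. Capitals mark the letters GATA or TGACG, read on either strand.
Aqp2: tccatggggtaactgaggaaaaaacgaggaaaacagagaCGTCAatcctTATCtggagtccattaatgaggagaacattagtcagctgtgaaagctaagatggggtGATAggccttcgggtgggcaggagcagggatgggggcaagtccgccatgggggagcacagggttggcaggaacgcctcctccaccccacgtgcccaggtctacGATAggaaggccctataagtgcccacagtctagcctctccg
Aqp6: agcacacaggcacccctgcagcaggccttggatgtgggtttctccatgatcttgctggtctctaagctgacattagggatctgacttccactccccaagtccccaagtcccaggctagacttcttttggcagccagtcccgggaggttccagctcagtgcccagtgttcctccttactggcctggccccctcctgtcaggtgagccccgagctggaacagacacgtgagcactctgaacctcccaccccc
The Aqp2 window held 3 matches to GATA, the core read by GATA factors of the collecting duct, and 1 to TGACG, the half-site of the cyclic AMP response element (CRE). GATA is held at least once by 53.6% of the 32851 RefSeq windows of this length and TGACG by 17.8%. The share of windows with 3 or more GATA matches was not counted. The window of Aqp6 held neither, but it lies inside the gene and does not cover the bases before the gene's first base. Windows were searched for 8 members, Aqp7 with 2 windows and Aqp4 not included. GATA was matched once each in Aqp3, Aqp7 and Aqp8, and TGACG in no member other than Aqp2. The full CRE, TGACGTCA, which contains the half-site and is held by 1.55% of windows, was in none of the 8, nor was the core of the antioxidant response element read by Nrf2, TGACNNNGC, held by 10.2%. The forkhead core TGTTTA, held by 12% of windows, was in none, and TATAAA, held by 12.4%, was matched once, in Aqp3. These matches describe letters in a short window.

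Levels are log2 processed signals set relative to the 75th percentile of non-control probes on that array, so that a level of 0 is the 75th percentile and 1 unit is a doubling. Levels of different probes are not comparable with each other. Differences are NEKO minus control on the same scale, from limma with sex as a term and Benjamini-Hochberg adjustment over all 19593 features, and the calls below are those with an adjusted p under 0.05. Each array had 61.8% to 65.7% of its probes above background, and no spot was saturated. Keap1 itself was at 1.80, 1.77, 1.92 and 1.87 in controls 1, 8, 4 and 7 and at 0.45, 0.06, 0.14 and 0.16 in NEKO 2, 3, 5 and 6. These values are in accord with the label of all 8 mice as NEKO or control. They do not check the labels of sex, or of K1 against K1Cre.

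No aquaporin transcript was called between NEKO and control kidneys, in either direction. Across everything tested, 0.097% of features were called higher and 0.128% lower. At an unadjusted p under 0.05 in limma, 1 of the 9 differed, Aqp6, against 18% of all features. In none of the 9 did the 4 NEKO mice lie wholly below or wholly above the 4 controls, while 5.39% of all features were separated downwards and 3.89% upwards. The median difference over the 9 was -0.09 against -0.03 over all features. Differences were below 0 in 7 of the 9, and in 11007 of the 19593 over all features. The RNA was from whole kidney, in which fewer cells of a type and less RNA per cell cannot be told apart.

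**Figure D1:**
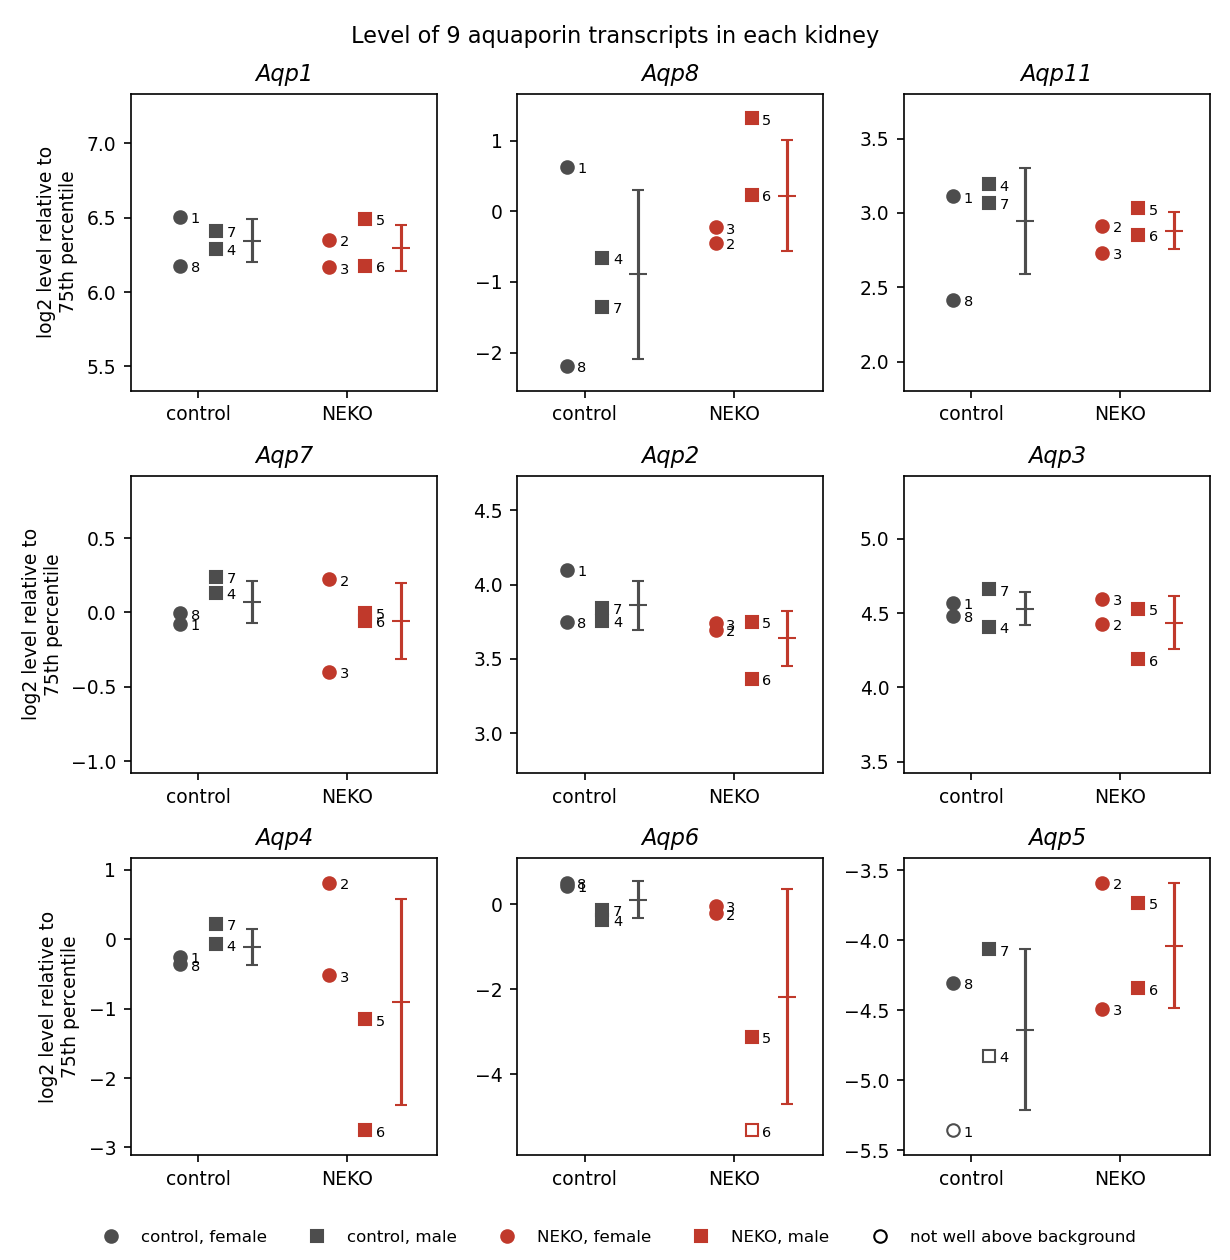
Level of each aquaporin transcript (log2, with the 75th percentile of the array at 0, 1 panel per gene, each with its own y axis) in 4 control and 4 NEKO kidneys. Points are mice, numbered by replicate, circles are females and squares males, open points were not well above background, and bars give the mean and SD (n = 4). Control and NEKO mice overlap in all 9 panels, and the lowest points of Aqp4 and Aqp6 are the NEKO males 5 and 6.

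Among the channels of the proximal tubule, Aqp1 was nearly level. It stood at 6.51, 6.18, 6.29 and 6.41 in controls 1, 8, 4 and 7 and at 6.35, 6.17, 6.49 and 6.17 in NEKO 2, 3, 5 and 6. The ranges of the groups lay over each other almost fully. The difference was -0.05 (standard error 0.11, adjusted p = 0.83 by limma), with a 95% interval from -0.32 to 0.22, which leaves room for a change of at most 1.25-fold downwards.

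Aqp11, an intracellular aquaporin of the proximal tubule that is needed for normal proximal cells, was at 3.11, 2.41, 3.19 and 3.07 in controls 1, 8, 4 and 7 and at 2.91, 2.73, 3.03 and 2.85 in NEKO 2, 3, 5 and 6. Control 8 lay below every other mouse, and the remaining 3 controls lay above all 4 NEKO mice. The difference was -0.06 (standard error 0.16, adjusted p = 0.85 by limma). It was -0.23 without control 8 and 0.05 without control 1 (adjusted p = 0.29 and 0.90).

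Aqp7 carries glycerol as well as water and lies in the brush border of the proximal straight tubule. Its level was -0.08, -0.01, 0.13 and 0.24 in controls 1, 8, 4 and 7. In NEKO mice 2 and 3 it was 0.22 and -0.40, and in NEKO 5 and 6 it was -0.00 and -0.06. The NEKO females stood at both ends of the NEKO range, and both NEKO males lay below both control males. The difference was -0.13 (standard error 0.14, adjusted p = 0.63 by limma). Of 10 other genes of glycerol handling that were tested, none was called. The one with the largest difference was Gpd2, mitochondrial glycerol-3-phosphate dehydrogenase, at -0.85 (adjusted p = 0.17), and the median of the 10 was -0.03.

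Aqp8, which carries water and, in mitochondria, ammonia and hydrogen peroxide, had the widest spread among controls of the 9. It was at 0.63, -2.19, -0.66 and -1.36 in controls 1, 8, 4 and 7, and at -0.45, -0.23, 1.32 and 0.23 in NEKO 2, 3, 5 and 6. The highest control, number 1, is the K1 mouse, and it lay above 3 of the 4 NEKO mice. The other controls, all K1Cre, lay below all 4. The difference was 1.11 (standard error 0.64), a fold of 2.16 with a 95% interval from 0.758 to 6.16, and did not pass the adjustment (adjusted p = 0.39 by limma). Without control 1 it was 1.81 (adjusted p = 0.12) and without control 8 it was 0.68 (adjusted p = 0.59).

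Markers of the proximal tubule gave a median difference of 0.05 over 14 genes, of which 10 were above 0. None was called, and the largest difference was that of Slc13a3, a dicarboxylate transporter, at 0.97 (adjusted p = 0.12). Their summed level, in multiples of the signal at the 75th percentile, was 844 to 1163 in controls and 933 to 1129 in NEKO mice. The 8 markers of the straight part gave a median of -0.07, with Slc22a7, an organic anion transporter, at -2.19 (adjusted p = 0.48), and summed levels of 275 to 513 and 246 to 389. Their median was 0.19 within females, with 2 of the 8 below 0, and -0.50 within males, with 7 below 0. The part of these markers in the values of Aqp1, Aqp7, Aqp8 and Aqp11 was not tested.

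Aqp2 did not pass the test between NEKO and control kidneys. Its level was 4.10, 3.75, 3.75 and 3.84 in controls 1, 8, 4 and 7 and 3.70, 3.74, 3.75 and 3.37 in NEKO 2, 3, 5 and 6. The groups overlapped by a hair, since NEKO 5 lay just above control 8. The means were 3.64 ± 0.18 (SD, n = 4) and 3.86 ± 0.16 (SD, n = 4). The difference was -0.22 (standard error 0.12), 1.17-fold lower, and did not pass the test (p = 0.097, adjusted p = 0.35 by limma, exact two-sided permutation p = 0.057 where 0.0286 is the smallest that 4 mice against 4 can give). The 95% interval ran from -0.50 to 0.05, so that a fall of more than 1.41-fold lay outside it. Without NEKO 6, the lowest mouse, the difference was -0.14, and over all alternatives of the processing it stayed between -0.30 and -0.14.

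Aqp3, the basolateral water and glycerol channel of principal cells, was at 4.57, 4.48, 4.41 and 4.66 in controls 1, 8, 4 and 7 and at 4.43, 4.59, 4.53 and 4.19 in NEKO 2, 3, 5 and 6. NEKO 6 again lay lowest, and the other mice of both groups were mixed. The difference was -0.10 (standard error 0.11, 95% interval -0.35 to 0.16, adjusted p = 0.66 by limma), and it was -0.01 without NEKO 6.

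**Figure D2:**
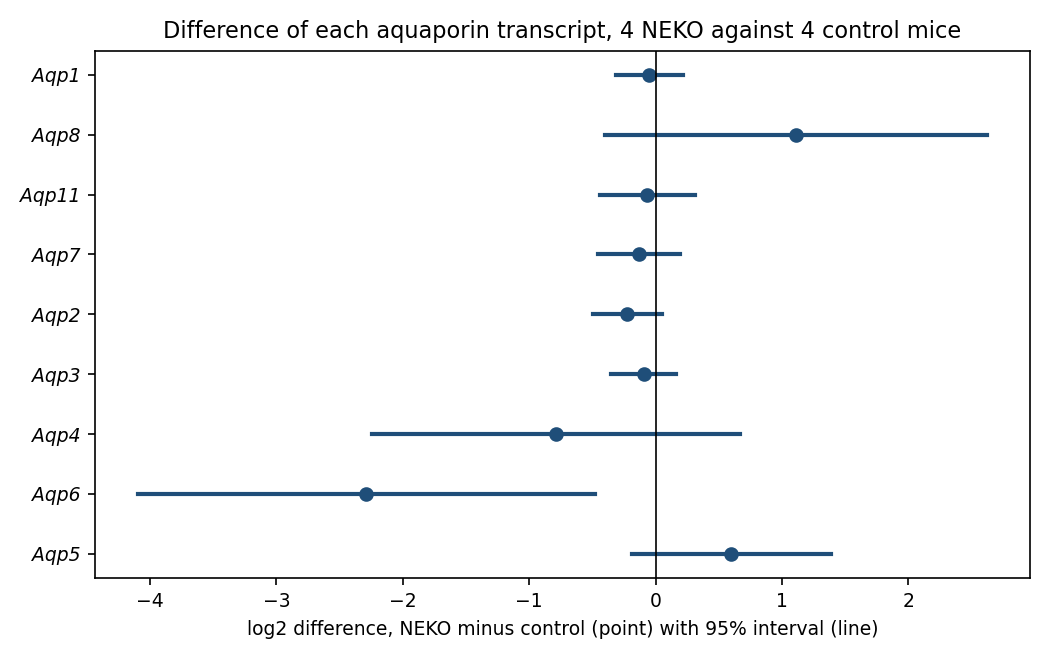
Difference in level, NEKO minus control, on the log2 scale (x axis) for each aquaporin transcript (y axis), with points for the fitted difference and lines for its 95% interval from limma (4 against 4 mice). The intervals of Aqp1, Aqp2, Aqp3, Aqp7 and Aqp11 lie within -0.50 and 0.31, those of Aqp4, Aqp5, Aqp6 and Aqp8 are wider, and that of Aqp6 alone does not reach 0.

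Aqp4, the other basolateral channel of principal cells, was read on 3 probes. On the brightest, A_51_P419319, it was at -0.25, -0.36, -0.07 and 0.23 in controls 1, 8, 4 and 7. In NEKO 2 it was 0.82, the highest of all 8 mice, and in NEKO 3, 5 and 6 it was -0.52, -1.15 and -2.76, the lowest 3. The controls thus kept within a narrow range while the NEKO mice lay on both sides of it. The difference over both sexes was -0.79 (standard error 0.62, adjusted p = 0.52 by limma). Without NEKO 2 it was -1.31 (adjusted p = 0.26) and without NEKO 6 it was -0.22 (adjusted p = 0.85). On the other probes NEKO 2 was again highest and NEKO 5 and 6 lowest, with NEKO 3 within or near the controls, and the differences were -0.69 on A_52_P25710 and -0.65 on A_52_P625527.

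**Figure D3:**
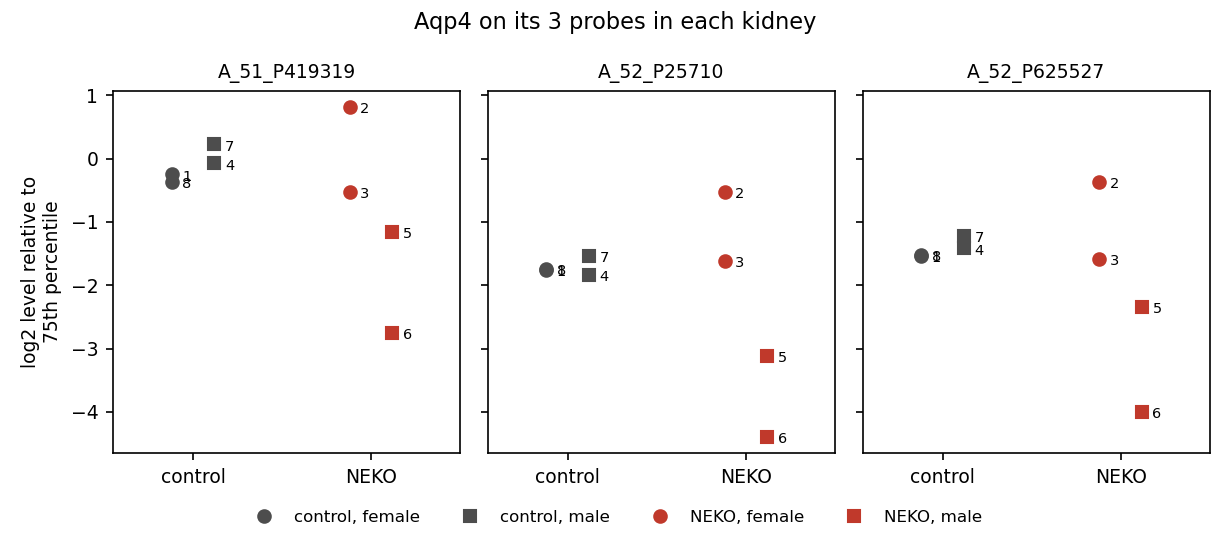
Level of Aqp4 on each of its 3 probes (log2 relative to the 75th percentile, y axis shared) in control and NEKO mice, numbered by replicate, with circles for females and squares for males. On every probe NEKO 2 is the highest mouse and NEKO 5 and 6 are the lowest 2.

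Aqp6 had the largest difference of the 9. It is an intracellular, anion-permeable aquaporin of the acid-secreting intercalated cells of the collecting duct, and was read on 1 probe. It was at 0.45, 0.51, -0.36 and -0.13 in controls 1, 8, 4 and 7 and at -0.21, -0.03, -3.12 and -5.33 in NEKO 2, 3, 5 and 6. Only in NEKO 6 was the probe not well above background. The NEKO females lay below both control females, NEKO 2 between the control males and NEKO 3 above them, and the NEKO males lay far below every other mouse. The means were -2.17 ± 2.54 (SD, n = 4) and 0.12 ± 0.43 (SD, n = 4). The difference over both sexes was -2.29 (standard error 0.77, 95% interval -4.10 to -0.48), and did not pass the adjustment (p = 0.020, adjusted p = 0.20 by limma, exact two-sided permutation p = 0.14). It was -1.51 without NEKO 6 (adjusted p = 0.30). Of all features tested, 0.342% had a larger absolute difference, a description of size and not of precision.

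Aqp5, known from glands and airway and also found in some intercalated cells, was dim. It was at -5.36, -4.30, -4.83 and -4.06 in controls 1, 8, 4 and 7, and well above background in 8 and 7 of these. In NEKO 2, 3, 5 and 6 it was at -3.59, -4.49, -3.73 and -4.34, well above background in all 4. NEKO mice 2 and 5 lay above every control and 3 and 6 among them. The difference was 0.60 (standard error 0.33, adjusted p = 0.38 by limma), and 0.23 with normexp background correction. Thus, of 3 neighbouring genes on chromosome 15, Aqp2 and Aqp6 had differences below 0 and Aqp5, which lies between them, above 0, with only the interval of Aqp6 on one side of 0. Markers of gland tissue, pancreatic or salivary, were mostly dim, with 3 of 10 tested, and gave a median difference of 0.11.

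Effects were then taken within each sex, 2 mice against 2, from a second limma model with an interaction of sex and genotype. In males Aqp6 fell by 3.98 (log2; standard error 0.64, adjusted p = 0.029), and it was the only aquaporin called in males, where 4.27% of all features were. The size of this fall is approximate, since 1 of the 2 NEKO males was not well above background, and it was -2.83 with normexp background correction. In females the difference was -0.60 (adjusted p = 0.79), and no aquaporin was called, against 0.0612% of all features. The difference between the sexes was -3.38 (standard error 0.91, 95% interval -5.58 to -1.18, adjusted p = 0.24 by limma). The call in males was lost when control 1, 4, 7 or 8 or NEKO 2 or 3 was left out. It was kept without NEKO 5 (difference -5.08) or NEKO 6 (-2.87). With a female left out (control 1 or 8, NEKO 2 or 3) the difference in males stayed at -3.98, and only its estimated precision changed.

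Aqp4 had a difference of 0.45 in females and of -2.03 in males, 4.09-fold lower, which was not called (adjusted p = 0.14). Its difference between the sexes was -2.48 (95% interval -4.57 to -0.40, adjusted p = 0.37 by limma). On the other Aqp4 probes the values were 0.68 and 0.55 in females and -2.07 and -1.85 in males. At an unadjusted p under 0.05, the interaction thus singled out 2 of the 9, Aqp4 and Aqp6, against 10.5% of all features, and after adjustment none, against 0.0153%. The p-values of the interaction for the other 7 ranged from 0.33 to 0.90.

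For Aqp2 the difference was -0.21 in females and -0.24 in males, so the sexes gave nearly the same value. Aqp2 and Aqp6 were the 2 of the 9 in which each NEKO mouse lay below both controls of its own sex, in females and in males, as did 10.6% of all features. For Aqp2 this margin was thin, with 3.74 in NEKO 3 against 3.75 in control 8 and, in males, 3.752 in NEKO 5 against 3.754 in control 4. Aqp8 had differences of 0.44 in females and 1.78 in males (adjusted p = 0.90 and 0.33). In Aqp1, Aqp3, Aqp5, Aqp7 and Aqp11 the difference in males ranged from -0.22 to 0.41. Averaged over genotypes, no aquaporin differed between males and females at an adjusted p under 0.05, against 0.786% of all features. Aqp6 had the largest sex difference, at -2.42 for male minus female (adjusted p = 0.14), made up of -0.73 in controls and -4.11 in NEKO mice.

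**Figure D4:**
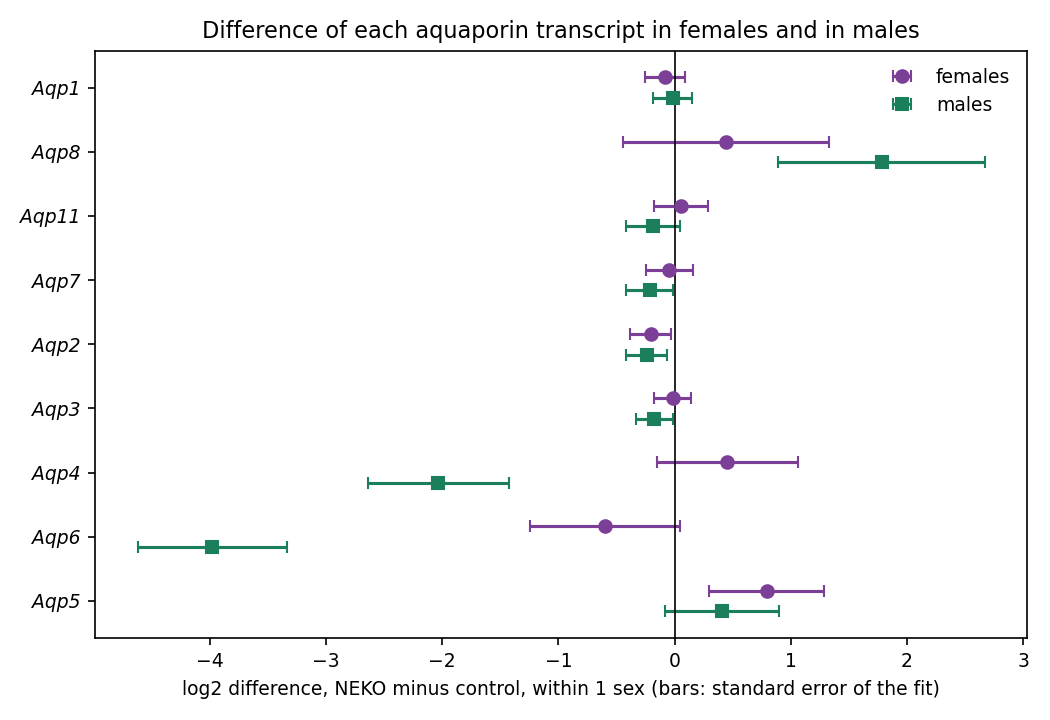
Difference in level, NEKO minus control, on the log2 scale (x axis) within females (circles) and within males (squares) for each aquaporin transcript (y axis), 2 mice against 2, with bars for the standard error of the fit. The 2 symbols lie close together for Aqp1, Aqp2, Aqp3, Aqp7 and Aqp11 and furthest apart for Aqp6 (-0.60 and -3.98) and Aqp4 (0.45 and -2.03).

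Markers of intercalated cells had differences below 0, as Aqp6 had. Of 14 such genes, 13 were tested and none was called, and their median difference was -0.90 against -0.03 over all features. All 13 differences were below 0, 9 of them at an unadjusted p under 0.05, as were 2074 of all 19593 features. The largest was that of Slc26a4, the chloride and bicarbonate exchanger pendrin, at -2.07 (adjusted p = 0.081). Their summed level, to which bright genes add most, was 71.0 to 104 in controls and 30.6 to 65.7 in NEKO mice, without overlap. Taken singly, 4 of the 13 had all NEKO mice below all controls, as had 5.39% of all features. The mean deviation of the 13 from the control mean ran from -0.23 to 0.32 in controls, with only NEKO 3 of the NEKO mice within that range. It was -0.39 and -0.20 in NEKO females 2 and 3, and -0.92 and -1.55 in NEKO males 5 and 6. Aqp6 deviated by -0.33 and -0.14 and by -3.24 and -5.45 in the same mice, so the 4 mice stood in the same order on both measures. In males the differences of the 13 markers ran from 0.05 for Atp6v0a4, a subunit of the proton pump, to -3.04 for Slc26a4. Whether Aqp6 and these markers differed in size of effect, and the part of the markers in the values of Aqp6, was not tested.

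Principal cell markers gave smaller values. Over 14 genes, none of them called, the median was -0.34. At an unadjusted p under 0.05, 5 were lower and 1 higher, against 18% of all features in either direction. The largest difference was in Hsd11b2, which inactivates glucocorticoids in these cells, at -0.92 (adjusted p = 0.15). Their summed level was 109 to 131 in controls and 83.9 to 119 in NEKO mice. The mean deviation was -0.03 and -0.07 in NEKO females 2 and 3, and -0.34 and -0.64 in NEKO males 5 and 6. Aqp2 deviated by -0.17, -0.12, -0.11 and -0.50 in NEKO 2, 3, 5 and 6, and Aqp4 by 0.93, -0.41, -1.04 and -2.64. The lowest mouse was NEKO 6 for Aqp2, Aqp4 and the markers alike, and the part of the markers in these values was not tested.

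**Figure D5:**
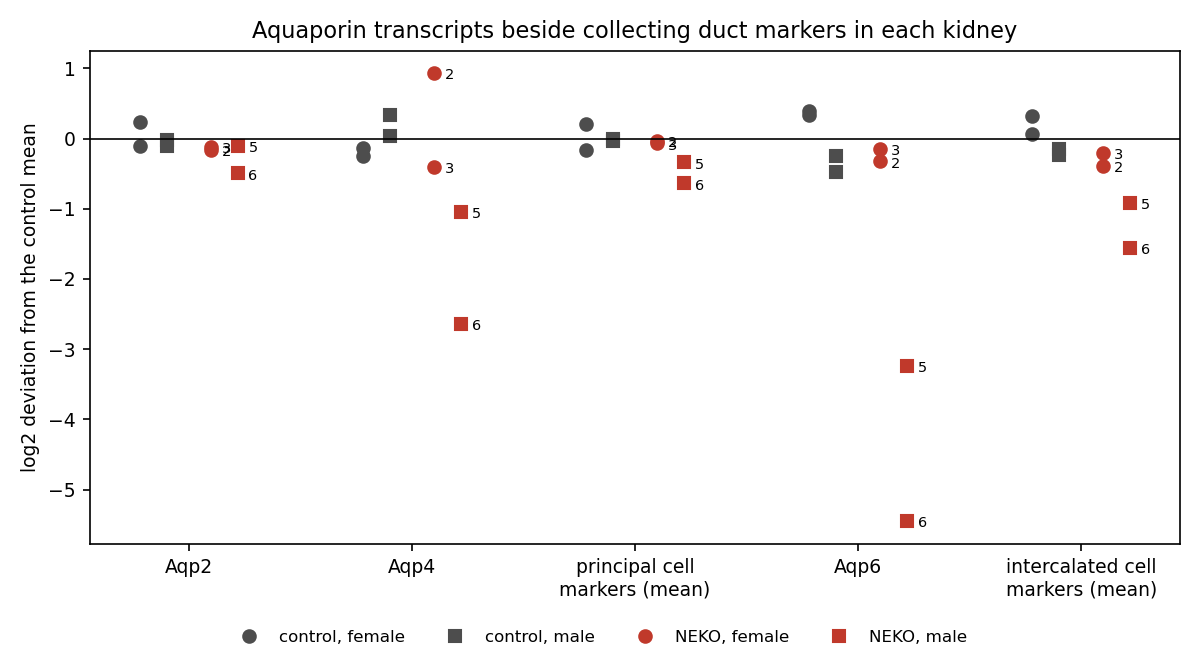
Deviation from the mean of the 4 controls on the log2 scale (y axis) for Aqp2, Aqp4 and Aqp6 and for the mean of 14 principal cell and 13 intercalated cell markers, with 1 point per mouse (circles for females, squares for males, NEKO mice numbered by replicate). NEKO 6 is the lowest mouse in all 5 columns, and the deviations of Aqp6 in NEKO 5 and 6 (-3.24 and -5.45) stand beside -0.92 and -1.55 for the intercalated cell markers, with Aqp6 not well above background in NEKO 6.

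Markers of medullary segments also deviated below 0 in the NEKO males. The mean deviation of thin descending limb markers was 0.23, 0.19, -1.52 and -1.60 in NEKO 2, 3, 5 and 6, and that of inner medulla markers 0.64, 0.20, -1.41 and -1.59. For the thick ascending limb it was -0.04, 0.04, -0.77 and -0.90. The median differences over both sexes were -0.08 over 9 genes, -0.17 over 8 and -0.27 over 9, and none was called. The largest single differences were in Fst, encoding follistatin, at -3.66 (adjusted p = 0.12), in the urea transporter Slc14a2 at -2.26 (adjusted p = 0.21) and in Egf at -0.96 (adjusted p = 0.21). The lists share genes, so they are not separate readings. Slc14a2, at -4.28 in males, is in both the thin descending limb and the inner medulla list. Kcnj1 is in the thick ascending limb and principal cell lists, and Fxyd4 in the inner medulla and principal cell lists. Slc4a1 is in the intercalated cell list and the red blood cell list below. Aqp4 and Aqp6 were also low in NEKO 5 and 6. Aqp1 was at 6.49 and 6.17 in them, but the proximal tubule expresses it as well as the thin descending limb. Its level in whole kidney is therefore not a reading of the thin limb alone. The part of the medullary markers in the aquaporin values was not tested.

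Markers of cells outside the tubule were mixed. Over 9 urothelial genes the median difference was 1.29, with Krt5, a basal keratin, at 1.85 (adjusted p = 0.14). At an unadjusted p under 0.05, where 1447 of all 19593 features were higher, 6 of the 9 were. Their mean deviation was 0.55 and 0.64 in NEKO 2 and 3 and 1.51 and 1.39 in NEKO 5 and 6. In controls it ran from -0.67 to 0.68, with the female control 1 highest, so both NEKO females lay within the control range. For 8 adipocyte genes the median was 1.26, with Plin1, a lipid droplet protein, at 1.48 (adjusted p = 0.52 by limma). Their mean deviation was 2.21 and 1.44 in NEKO 2 and 6 and near 0 in NEKO 3 and 5. In controls it ran from -1.27 to 1.56, so of the NEKO mice only NEKO 2 lay above that range. Leukocyte genes gave a median of 0.28 over 10, with S100a8 at 1.81 (adjusted p = 0.24), and a mean deviation of -0.18 and 0.26 in NEKO 2 and 3 and of 1.07 and 1.23 in NEKO 5 and 6. The urothelial and leukocyte lists were thus highest in the 2 males in which Aqp4 and Aqp6 were lowest. The part of these lists in the aquaporin values was not tested. Endothelial genes, whose cells carry Aqp1 in the medulla, gave 0.14 over 10, with Tie1 at 0.27 (adjusted p = 0.34). For 4 red blood cell genes, another site of Aqp1, the median was 0.71, with Alas2 of haem synthesis at 1.52 (adjusted p = 0.26). None of these was called.

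The genes that carry the vasopressin signal to Aqp2 were then examined. Beside the counts that follow, 1447 of all 19593 features were higher and 2074 lower at an unadjusted p under 0.05, which is 18% in either direction. Of 21 tested receptor, G protein, cyclase, kinase and phosphodiesterase genes none was called, 2 were higher and 3 lower at an unadjusted p under 0.05, and the median was 0.06. Prkar2b, a regulatory subunit of protein kinase A, had the largest difference, at 1.23 (adjusted p = 0.18). Among 23 transcription factors of the collecting duct and of Aqp2 none was called or reached an unadjusted p under 0.05 by limma, and the median was -0.09. The largest was Elf5, a factor of principal cells, at -0.84 (adjusted p = 0.40). Of 41 genes for the trafficking and turnover of Aqp2 none was called, 5 were higher and 1 lower at an unadjusted p under 0.05, and the median was 0.02. Ctsd, the lysosomal protease cathepsin D, had the largest difference, at 0.54 (adjusted p = 0.13). All NEKO mice lay above all controls in 4 of the 41, Ctsd among them, and below in 1, against 3.89% and 5.39% of all features. For 11 osmolyte and urea genes of the medulla none was called, 1 was higher and 4 lower at an unadjusted p under 0.05, and the median was -0.00. Slc14a2, which is also in the thin descending limb and inner medulla lists, again had the largest difference. Its difference was -0.25 in females and -4.28 in males, and its interaction was called (adjusted p = 0.035 by limma). For comparison, 12 of 14 Nrf2 targets were higher at an unadjusted p under 0.05, with a median of 1.17, and Txnrd1, thioredoxin reductase, was called at 1.30 (adjusted p = 0.049).

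The genes whose levels went most closely with each aquaporin were taken by Pearson correlation over the 8 arrays, after the mean of each sex was subtracted, among 12698 other named genes. With Aqp2 these were Sult1c1, Exosc5 and Sp6 (r = 0.995, 0.994 and 0.993), with differences between genotypes of -0.33, -0.12 and -0.27. With Aqp3 they were Cd24a, Nfe2l1 and 5730522E02Rik (r = 0.980, 0.966 and 0.961). With Aqp4 they were Csad, P2rx5 and Epor (r = 0.984, 0.978 and 0.978), of which Epor, the erythropoietin receptor, differed by 0.15 in females and -0.96 in males. For Aqp6, which was not above background on every array and was added after its values were seen, they included Ccdc148 and Adrb1 (r = 0.996 and 0.990), with differences in males of -0.63 and -1.31. Adrb1 encodes a beta-adrenergic receptor.

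For Aqp1 the closest were Efemp1, 1700020A23Rik and Prss22 (r = 0.970, 0.964 and 0.963), and for Aqp7 Chmp4c, Ndst1 and Adgrf1 (r = 0.985, 0.981 and 0.966). For Aqp8 they were Sema3e, Pebp1 and Fth1 (r = 0.969, 0.967 and 0.964), and for Aqp11 Acnat2, Angptl4 and Ctdsp2 (r = 0.975, 0.967 and 0.966). None of the genes named here for their correlation was called. These values of r rest on 8 points that share slide and genotype, and were picked as the highest among all candidates.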

How the data were processed

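Kidney RNA (total RNA, Sepazol extraction, Cy3 Quick Amp labelling) of 8 mice was measured on 8 Agilent 4x44K arrays. The authors deposited scanner output of Feature Extraction 10.7.3.1, with intensity per spot (processed signal with background subtracted, and raw median signal with its background). The deposited matrix of log2 values holds the same signal relative to the 75th percentile and centred on each probe, since 99.9% of its values lay within 0.01 of recomputed ones. The array test and normalization are not given in the sources used here.

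Outlier spots (73 to 172 of 43379 per array) were left out, spots of a probe averaged, and probes kept if well above background on at least 4 arrays with a value on at least 6. Where several probes were kept, the one with the highest mean stood for the gene. RefSeq accessions (GRCm38.p6) named 26690 of 41174 probes. The array annotation is on mm9, so printed coordinates belong to RefSeq alone. The 19593 features, 13570 named genes and 6023 unnamed transcripts, were fitted in limma 3.58.1 (R 4.3.3), with lmFit, eBayes and genotype plus sex, and a second model had their interaction. The fits were tested on simulated data. Gene lists are described by counts and medians.

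The members and lists were chosen with earlier results of these data known. Named are the 9 genes and their probes, Keap1, 3 other family genes, called genes of each list or else the one with the largest absolute difference, and the 3 closest genes by correlation, 1 of which is not reported here. Atp6v0a4, and the genes closest to Aqp6, were chosen after their values were seen. The number of arrays limits precision. The mice were separate animals, and no sample was left out.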

Additional observations from a re-analysis of the deposited data

Results flagged for a closer look

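In a group of 4 mice, a lowest or highest mouse stands apart when its gap to the nearest other mouse is a larger share of the range of the group than Dixon's 95% value. Of 18 groups, 9 transcripts in NEKO and in control mice, 2 held such a mouse, and chance alone gives about 1 in 20. For Aqp2 in NEKO mice, replicate 6 was lowest at 3.37 against 3.70 to 3.75 in the other 3, a gap of 0.854 of the range. For Aqp11 in control mice, replicate 8 was lowest at 2.41 against 3.07 to 3.19, a gap of 0.840 of the range.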

How the results depend on the processing

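The count of aquaporin transcripts called over both sexes was 0 higher and 0 lower under all 25 alternatives, which changed background correction, normalization, scaling, filter, probe rule, covariate, test, threshold, controls or the mice included. With normexp the median signal was used, with an offset of 50. Aqp2 to Aqp8 kept the sign of their differences under every alternative run. Aqp1 and Aqp11 changed sign without control 1, to 0.02 and 0.05, which is also the fit with K1Cre controls only, and Aqp1 without NEKO 6. The lowest adjusted p of Aqp6 was 0.064, with the effect averaged over the sexes in the interaction model. The count called in males, whose alternatives were chosen after seeing the data, was 1. With K1Cre controls only it became 0. Both male controls are K1Cre, so the difference in males stayed at -3.98 there and only its estimated precision changed. The count also became 0 at an adjusted p under 0.01 and with no filter on dim probes (adjusted p = 0.059 by limma). The same held with detection required on all 8 arrays, which removes Aqp6 itself. It ranged from 0 to 1 when each mouse was left out in turn. A group of that fit then holds 1 mouse, assumed to vary like the others. The difference of Aqp6 in males ranged from -5.08 to -2.83. The number of named genes called was 38, and ranged from 1 under the methods' t-test with adjustment to 1625 without it. Scaling to detected probes moved the median of all features from -0.031 to -0.027. No paired analysis was run, since the labels do not give the litter of each mouse. Low signal limits Aqp5 and, in NEKO 6, Aqp6.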

Other observations

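Chst9, a sulfotransferase gene that lies next to Aqp4 and was chosen after its values were seen, had a difference of -0.10 in females and -2.10 in males (-1.10 over both, adjusted p = 0.22; interaction adjusted p = 0.083, both by limma). On the other side of Aqp4, Kctd1 differed by -0.04 in females and -0.25 in males. Racgap1, which follows Aqp6, differed by -0.06 and -0.45, and Faim2, which lies beside Aqp2, by -0.16 and -0.18.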
